A study of Capitella teleta with 10 samples.

Results

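The change in chromatin accessibility between cleavage and the onset of trunk formation in the annelid Capitella teleta was measured by setting 2 libraries of stage 4tt larvae against 2 libraries of 64-cell embryos, which are 4 of the 10 ATAC-seq libraries of the series. All 46409 consensus peaks of the series were compared, and the 2 gastrula libraries were used to ask where the intermediate stage lay between the ends, above them or below them. Both ends and the gastrula came from the same sequencing centre per the methods of the study, whereas the stage 5 and stage 8 libraries came from another. Values of these later stages are given only beside the others. Their libraries entered the fit, however, and so the spread behind every call, as well as the mean signal over 10 libraries. Whole animals were pooled for each library, about 120 stage 4tt larvae, 200 gastrulae or 500 embryos of 64 cells, so that about 50000 cells entered each reaction. No treatment or genotype separated the groups. The growth notes of all libraries describe the rearing of another annelid, Owenia fusiformis, and the species was therefore taken from the organism label and the scaffold names. The study describes the 2 libraries of a stage as biological replicates, and the labels do not say whether they came from separate broods, so the tests measure the spread between these libraries.

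In ATAC-seq, a transposase cuts DNA that is not wrapped in nucleosomes or otherwise shielded and joins sequencing adaptors to the cut ends. Sites with many cuts appear as peaks and are mostly promoters, enhancers and other sites where proteins contact DNA. Capitella teleta cleaves spirally, and its early embryo is divided into small cells at the animal side and large yolky cells at the vegetal side. During gastrulation the small cells spread over the yolky ones, and in the following larval stages the segmented trunk forms from growth zones on both sides of the body. In libraries of whole animals, a change of accessibility in every cell and a change in the share of cells with an open site cannot be told apart.

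Each value is the deposited normalised signal, which is the number of reads in a peak after scaling by the authors. In the 6 libraries of the 3 stages, the reads recovered in peaks numbered 14041122 and 16551338 in 64-cell embryos, 22727462 and 24907020 in the gastrula and 27218032 and 25327690 at stage 4tt. The 64-cell libraries were thus the shallowest, since the median peak held 253 and 234 reads at stage 4tt against 143 and 173 in 64-cell embryos. At a mean signal of at least 50, the replicates differed by a median of 0.18 on the log2 scale in 64-cell embryos, 0.15 in the gastrula and 0.13 at stage 4tt. More than 8-fold apart were 8 peaks in 64-cell embryos, 61 in the gastrula and 33 at stage 4tt. Peaks are named by their identifier and their position on the numbered scaffolds of the deposited files, with starts counted from 1. Neither the genes beside them nor their sequences were analysed here.

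Between 64-cell embryos and stage 4tt larvae, 12460 peaks opened and 14388 closed, which is 26.8% and 31.0% of the 46409 peaks tested (limma on log2(signal + 1), two-sided, Benjamini-Hochberg adjusted p under 0.05). Together these were 57.9% of all peaks. The median change of the opened peaks was 0.73 on the log2 scale, or 1.65-fold, and that of the closed peaks was -0.84, or 1.78-fold lower at stage 4tt. Past a log2 change of 1, 3654 peaks had opened (7.87%) and 5309 had closed (11.4%). Without any test, both stage 4tt libraries lay above both 64-cell libraries at 15841 peaks (34.1%) and below both at 18848 peaks (40.6%). Some of these orders arise from the spread between libraries alone. The balance of opening and closing rested on the scaling. Opened peaks were 46.4% of the calls with the deposited scaling, 52.1% after quantile normalisation, 52.1% after scaling to equal totals, 62.8% after centring on the median and 36.5% after scaling to equal totals without the 10 strongest peaks. The median log2 change of all peaks was -0.06 with the deposited scaling and 0.17 with median centring, so all counts are relative to the scale of the deposited table.

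**Figure D1:**
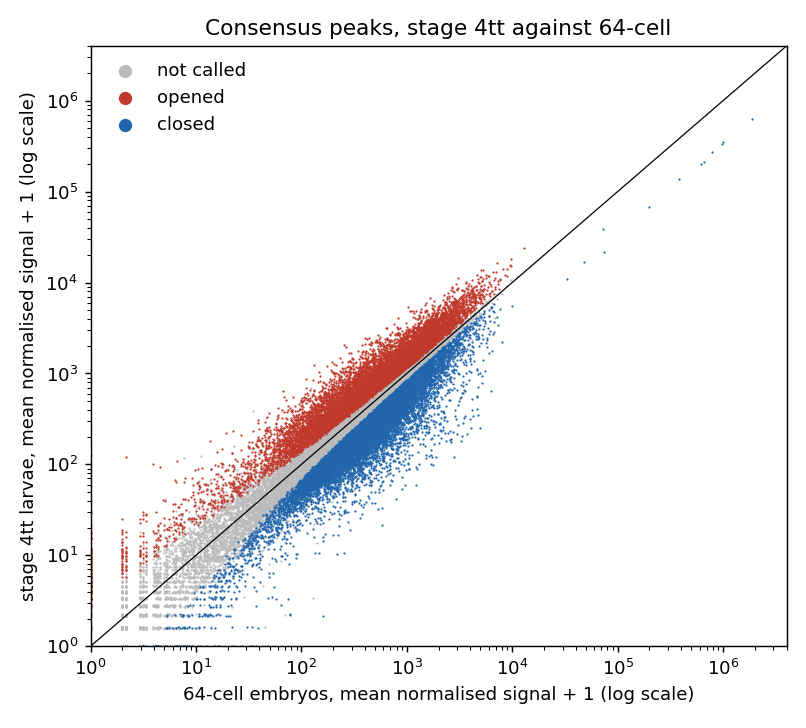
Mean normalised signal of each consensus peak in stage 4tt larvae (vertical axis) against 64-cell embryos (horizontal axis), both as signal + 1 on log scales with 2 libraries per stage; red points are the 12460 opened peaks, blue points the 14388 closed peaks, grey points the rest, and the line marks equal signal. Opened peaks reach higher on the axes than most closed ones, apart from a few closed peaks of very high signal in the upper right.

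The largest fold rises began at sites with almost no reads in 64-cell embryos. CTEL_peak_14784 (scaffold 226, 10774 to 11107) had a signal of 152 and 99.5 in the stage 4tt libraries and 0 in both 64-cell libraries. It was also at 0 in both gastrula libraries. Against a floor of 3 reads in each library, its signal was at least 19.4-fold higher at stage 4tt (limma adjusted p = 1.49e-06). CTEL_peak_26568 (scaffold 399, 71169 to 71566) showed the same course, with 59.6 and 53.5 at stage 4tt and 0 in the 4 earlier libraries, a signal at least 8.68-fold higher (limma adjusted p = 9.48e-07). CTEL_peak_7146 (scaffold 14736, 1330 to 2294) had 116 and 122 at stage 4tt against 2.37 and 0 in 64-cell embryos, where a single read was recovered. The ratio of its means was 100.5, with an exact 95% Poisson interval of 18.03 to 3968 for that read.

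By contrast, some rises were already present in the gastrula. CTEL_peak_31888 (scaffold 5018, 3138 to 3593) had 108 and 109 at stage 4tt against 9.39 and 1.96 in 64-cell embryos, and its gastrula signal was 129 and 73.3. CTEL_peak_5930 (scaffold 1379, 14290 to 14592) had 113 and 85.6 at stage 4tt against 0 and 5.90 in 64-cell embryos, with 82.3 and 37.2 in the gastrula. The 10 largest rises, which also comprised CTEL_peak_36590, CTEL_peak_1698, CTEL_peak_44748, CTEL_peak_15755 and CTEL_peak_15667, ranged from 53.5 to 186 in the stage 4tt libraries and from 0 to 33.1 in 64-cell embryos. Their fitted log2 changes were 4.12 to 6.96 and depend on the pseudocount of 1 at such levels. In both gastrula libraries 7 of the 10 were under 10, and in both stage 8 libraries again 7 were. With DESeq2 on recovered reads the call was lost for CTEL_peak_14784 (adjusted p = 0.13), CTEL_peak_1698 (adjusted p = 0.22) and CTEL_peak_44748 (adjusted p = 0.54). For CTEL_peak_15755 it was lost without either stage 4tt library, at limma adjusted p of 0.071 without replicate 1 and 0.066 without replicate 2, and in the 6 libraries of the 3 stages alone (limma adjusted p = 0.10).

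The largest falls included sites of high signal in 64-cell embryos. CTEL_peak_43595 (scaffold 868, 26183 to 26971) had 113 and 124 in the stage 4tt libraries against 2696 and 2938 in 64-cell embryos. Its signal was already 206 and 157 in the gastrula, and the groups were far apart, with a log2 change of -4.56 ± 0.17 (SE; limma adjusted p = 1.60e-10). CTEL_peak_25955 (scaffold 387, 90713 to 91087) had 52.0 and 65.9 at stage 4tt against 998 and 1463 in 64-cell embryos, and 53.4 and 76.0 in the gastrula. CTEL_peak_39649 (scaffold 723, 13276 to 13581) had 20.4 and 20.8 against 550 and 602, with 89.2 and 86.4 in the gastrula. CTEL_peak_12809 (scaffold 202, 2376 to 2514) had 9.13 and 9.91 against 296 and 208, with 24.4 and 19.9 in the gastrula. At these 4 peaks most of the fall in signal was in place by gastrulation.

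The other 6 of the 10 largest falls were weaker sites, at 33.2 to 168 in the 64-cell libraries and 0 to 19.3 at stage 4tt. CTEL_peak_43100 (scaffold 85, 175613 to 175953) had 2.27 and 0 at stage 4tt against 168 and 152 in 64-cell embryos. Only 2 reads were recovered at stage 4tt, which gives a ratio of 141 with an exact 95% Poisson interval of 38.9 to 1161. Its gastrula libraries were far apart, at 2.74 and 98.7. CTEL_peak_20941 (scaffold 304, 234229 to 234580) had 0 and 2.46 at stage 4tt against 51.2 and 101 in 64-cell embryos. Its gastrula libraries were likewise far apart, at 137 and 1.25, and the call was lost in 11 of the alternatives at limma or edgeR adjusted p of 0.054 to 0.17. CTEL_peak_2364 had 19.3 and 0 at stage 4tt against 116 and 150, and its call was lost without either 64-cell library, at limma adjusted p of 0.068 without replicate 1 and 0.079 without replicate 2, and in the 6 libraries of the 3 stages alone, at 0.060. In the gastrula CTEL_peak_2364 was at 288 and 366, above both ends, but the rise from 64-cell embryos was not called (limma adjusted p = 0.41). CTEL_peak_15901, CTEL_peak_40329 and CTEL_peak_18171 kept their calls under every alternative that gave them a value.

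Among peaks with a mean of at least 1000 at one end, a set added after values were seen, the 5 largest rises were smaller than the 5 largest falls. CTEL_peak_11985 (scaffold 196, 89796 to 90098) had 1357 and 1142 at stage 4tt against 142 and 121 in 64-cell embryos, a log2 change of 3.24 ± 0.14 (SE; limma adjusted p = 3.61e-10). Its neighbour CTEL_peak_11986 (scaffold 196, 90581 to 90859) had 1042 and 1053 against 149 and 146. The course through the gastrula differed between these neighbours. CTEL_peak_11985 stood at 1289 and 1430 in the gastrula, within the range of its stage 4tt values or above it, and CTEL_peak_11986 at 574 and 473, between its ends. CTEL_peak_36163 (scaffold 613, 116807 to 117803) opened late, with 226 and 159 in 64-cell embryos, 314 and 226 in the gastrula and 1396 and 1273 at stage 4tt. CTEL_peak_18995 (scaffold 28) and CTEL_peak_39182 (scaffold 707) completed the 5 rises, which spanned log2 changes of 2.81 to 3.24. The 5 falls spanned log2 changes of -4.56 to -4.14. CTEL_peak_19779 (scaffold 29, 727450 to 729781) had 248 and 249 at stage 4tt against 4161 and 5735 in 64-cell embryos, and its gastrula values of 262 and 249 did not stand apart from those of the larva. CTEL_peak_26873 (scaffold 40) had 195 and 168 against 3063 and 3435, and CTEL_peak_34654 (scaffold 577) had 108 and 88.7 against 1402 and 2171.

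**Figure D2:**
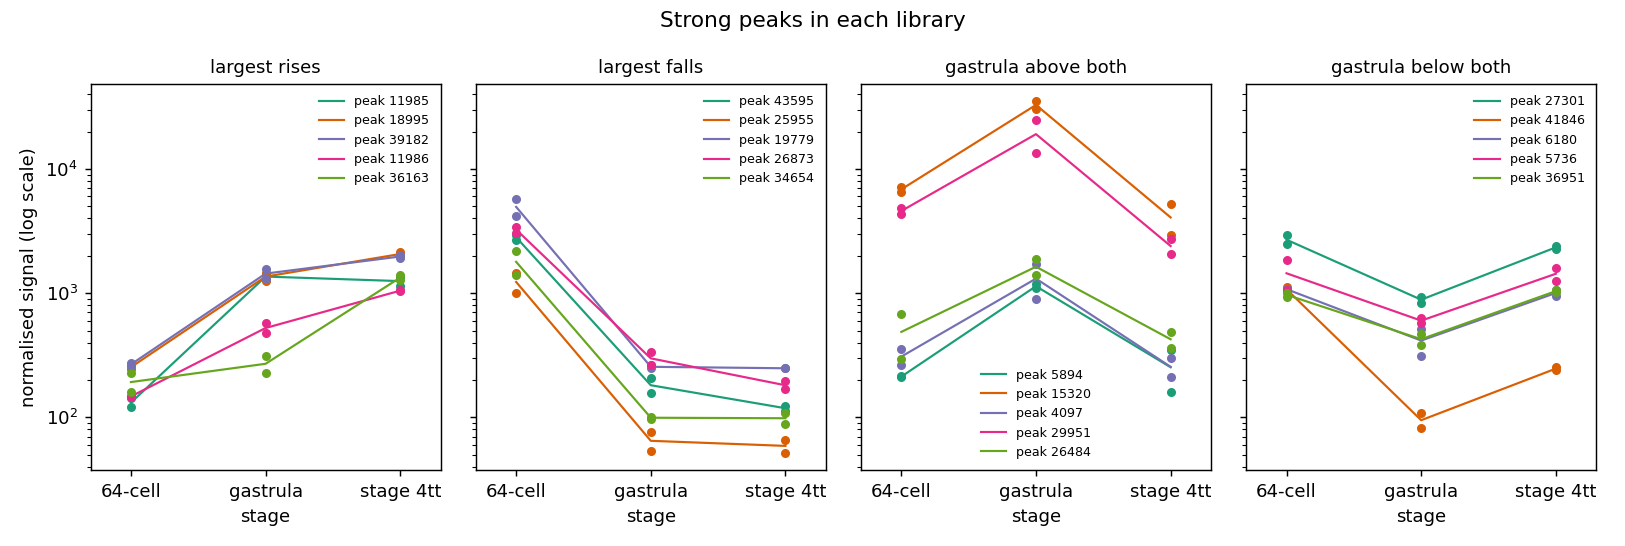
Normalised signal (vertical log axis) of 20 strong peaks in the 64-cell, gastrula and stage 4tt libraries; points are the 2 libraries of each stage and lines join their means, with 5 peaks per panel. The 5 falls had dropped to between 53.4 and 334 by the gastrula, whereas the gastrula values of the 5 rises ranged from 226 to 1578.

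In units of the deposited signal, the largest rises were at broad and strong peaks that were already open in 64-cell embryos. CTEL_peak_46062 (scaffold 98, 231252 to 236158) had 23740 and 23880 at stage 4tt against 12360 and 13540 in 64-cell embryos, with 20640 and 20630 in the gastrula. CTEL_peak_13221 (scaffold 208, 17297 to 21520) had 16240 and 16620 against 6914 and 7559, and CTEL_peak_5622 (scaffold 135, 252027 to 253387) had 13810 and 13870 against 5356 and 4844. Their log2 changes were 0.88, 1.19 and 1.44, and each passed the test under every alternative tried.

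The 3 largest falls in the same units were the 3 strongest peaks of the table. CTEL_peak_13150 (scaffold 2067, 10269 to 12505) had 618300 and 633300 at stage 4tt against 2110000 and 1652000 in 64-cell embryos, with 915000 and 989500 in the gastrula. CTEL_peak_15319 (scaffold 2314) had 341200 and 353800 against 1108000 and 896900, and CTEL_peak_16955 (scaffold 2500) had 328500 and 336300 against 1094000 and 863100. Their log2 changes were -1.58, -1.52 and -1.55 at limma adjusted p of 0.00021, 0.0002 and 0.00031. Quantile normalisation sets all 3 to a change of 0, because they hold the same ranks in every library. The 8 strongest peaks lay on 6 scaffolds and fell in nearly one ratio, with stage 4tt to 64-cell ratios of 0.326 to 0.361 and gastrula to 64-cell ratios of 0.493 to 0.539. They held 22.2% and 17.9% of the reads in peaks in 64-cell embryos, 10.3% and 11.1% in the gastrula and 7.09% and 7.24% at stage 4tt. Whether their share moved the signal of the other peaks was not tested beyond the scalings given above.

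The gastrula stood most of the way from the 64-cell embryo to the larva. On the line through all peaks that joins the 64-cell mean (0) to the stage 4tt mean (1), the gastrula libraries projected to 0.765 and 0.749. With the axis taken from 1 replicate of each end and rescaled to the other replicates, they lay at 0.886 and 0.851 or at 0.756 and 0.749. Without stage 4tt replicate 1 their mean was 0.665, and without replicate 2 it was 0.730. The gastrula was not a simple intermediate, however. Its libraries were farther from the 64-cell libraries than the stage 4tt libraries were. The root mean square difference over all peaks was 0.95 to 0.98 on the log2 scale for the 4 pairs of stage 4tt and 64-cell libraries, and 1.03 to 1.06 for the 4 pairs of gastrula and 64-cell libraries. The pairs of stage 4tt and gastrula libraries were 0.79 to 0.87 apart, and the replicates of a stage 0.52 to 0.57. Of 9 settings of the scale, pseudocount and filter, the 2 sets of pairs overlapped in none. The mean of the gastrula lay 0.70 off the line between the ends, against a line of 0.88 and errors of the stage means of 0.26 to 0.28. Stage 5 and stage 8 libraries, from the other sequencing centre, projected to 0.481 and 0.503 and to 0.436 and 0.434, and stage and centre cannot be told apart there.

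**Figure D3:**
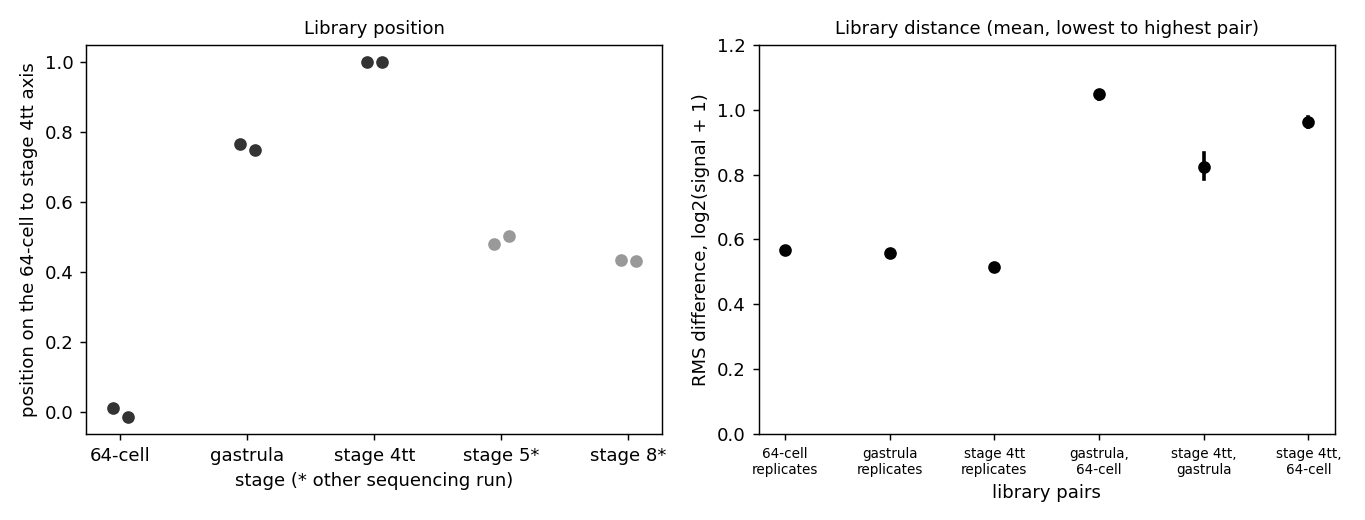
Left, position of each library on the axis from the 64-cell mean (0) to the stage 4tt mean (1) over all peaks, with stages of the other sequencing centre in grey; right, root mean square difference of log2(signal + 1) between libraries, with the mean as a point and the lowest to highest pair as a bar. The gastrula libraries lie at 0.765 and 0.749 on the axis, and gastrula and 64-cell libraries are farther apart than any stage 4tt and 64-cell pair.

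Peak by peak, the order of the stage means was counted without a test. Of all peaks, the gastrula mean was between the end means at 36.6%, below both at 35.7% and above both at 26.5%, and the 3 means were equal at 1.22%. At the 19561 peaks not called in the net contrast it was below both at 42.0% and above both at 38.3%. Spread between libraries alone can put a mean outside the ends, and its part in these shares was not measured. Among the 12460 opened peaks it was between the ends at 7292 (58.5%), already above the stage 4tt mean at 3719 (29.9%) and below the 64-cell mean at 1449 (11.6%). Among the 14388 closed peaks it was between the ends at 6432 (44.7%), below the stage 4tt mean at 6895 (47.9%) and above the 64-cell mean at 1061 (7.37%). Fewer peaks were outside by tests against both ends. Among the opened peaks the gastrula was called above both ends at 1219 and below both at 602. Among the closed peaks it was called below both at 2148 and above both at 293. Scaled from 0 at the 64-cell mean to 1 at the stage 4tt mean, the median position of the gastrula was 0.764 at opened peaks (0.790 and 0.740 in its libraries) and 0.972 at closed peaks (0.938 and 0.994). At peaks that changed by more than 1 on the log2 scale, the medians were 0.793 for opening and 0.851 for closing. Closing thus ran ahead of opening with the deposited scaling, but this order turned round with median centring, where opened peaks had a median of 0.952 and closed peaks 0.804. In either case the median gastrula value was past the halfway point of 0.5, which 71.4% of the opened and 80.01% of the closed peaks had passed.

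**Figure D4:**
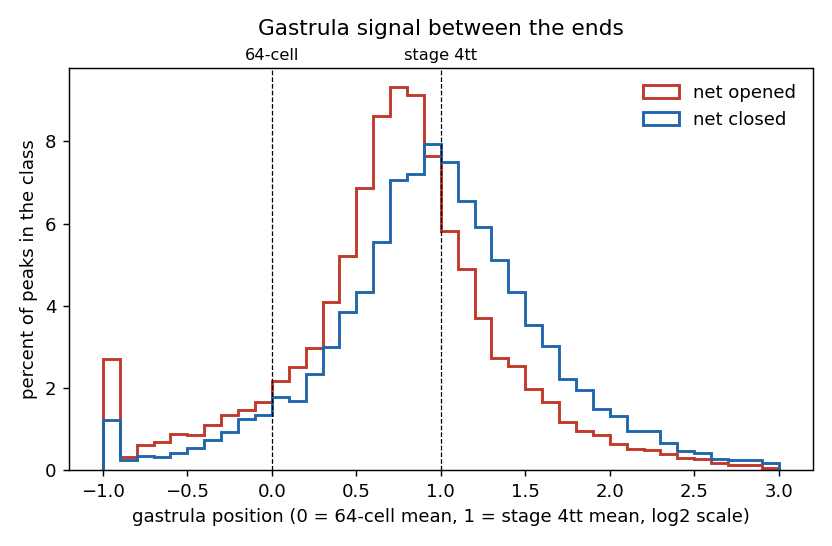
Distribution of the gastrula position at the opened (red) and closed (blue) peaks, in percent of the peaks of each class, where 0 is the 64-cell mean and 1 the stage 4tt mean on the log2 scale; values under -1 or over 3 are collected in the outermost bins. Both classes peak near the stage 4tt end, with medians of 0.764 for opened and 0.972 for closed peaks, and 47.9% of the closed peaks lie past 1. Positions are taken from means and carry no test.

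Tested in 2 steps, 12594 peaks opened (27.1%) and 16864 closed (36.3%) in the gastrula against 64-cell embryos, and 10092 opened (21.7%) and 6839 closed (14.7%) at stage 4tt against the gastrula. These contrasts share the gastrula libraries, and each shares an end with the net contrast. Against the midpoint of the ends, the gastrula was higher at 9940 peaks (21.4%) and lower at 14721 (31.7%). Above both ends by both tests were 3554 peaks (7.66%), and below both were 5875 (12.7%). Of the 3554 peaks, 2042 were not called in the net contrast, and of the 5875 peaks 3125 were not, so the comparison of the ends alone passed over them. As with the net calls, the balance rested on scaling, and peaks above both ends were 37.7% of those outside with the deposited scaling, 38.8% with equal totals, 39.0% with equal totals without the 10 strongest peaks, 49.2% after quantile normalisation and 62.9% after median centring. Where both steps exceeded 1 on the log2 scale, peaks above both ends were the more frequent ones in all 5 scalings. They numbered 1092 (2.35%) against 729 below (1.57%) with the deposited scaling, and their share of the 2 was 59.0% to 83.0% over the scalings. All 5 scalings used the pseudocount of 1, and this count was not made with other pseudocounts. With steps of any size, peaks above exceeded those below in the weakest quintile of mean signal (9.46% against 4.36%) and the strongest (10.2% against 7.20%). In the quintiles between, those below were more frequent. By libraries and without a test, both gastrula values lay above all 4 end values at 7154 peaks (15.4%) and below all 4 at 10299 (22.2%). Part of such orders arises from the spread between libraries alone, and that part was not measured.

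Over the 3 stages, the strongest transient openings were at sites with few or no reads at both ends. CTEL_peak_20884 (scaffold 3031, 86 to 443) had 117 and 109 in the gastrula, against 1.15 and 0 in stage 4tt larvae and 0 in both 64-cell libraries. It was at 0 in all 4 libraries of the later stages. CTEL_peak_2373 (scaffold 111, 88702 to 89441) had 103 and 72.8 in the gastrula, against 2.29 and 2.49 at stage 4tt and 9.47 and 0 in 64-cell embryos. CTEL_peak_28330 and CTEL_peak_24074 were of the same kind. At CTEL_peak_7050 (scaffold 14673) the gastrula libraries did not match each other, at 287 and 5.01 against 0 in all 4 end libraries, and the call was lost in 7 alternatives at limma or edgeR adjusted p of 0.082 to 0.20, namely both other pseudocounts, edgeR on recovered reads and leaving out any 1 library of the ends. CTEL_peak_7050 was open in the later larvae, at 224 and 211 in the stage 5 libraries and 250 and 205 in the stage 8 libraries. Among peaks with a mean of at least 1000 at one of the 3 stages, again chosen after values were seen, CTEL_peak_15320 (scaffold 2314, 8870 to 10030) had 35090 and 30410 in the gastrula, against 5205 and 2932 at stage 4tt and 7164 and 6533 in 64-cell embryos. It lies on the same scaffold as CTEL_peak_15319, whose signal was lower at stage 4tt than in the gastrula and lower in the gastrula than in 64-cell embryos. CTEL_peak_5894 (scaffold 137, 421346 to 422781) had 1094 and 1180 in the gastrula, against 347 and 159 at stage 4tt and 216 and 210 in 64-cell embryos. CTEL_peak_29951 and CTEL_peak_4097 had gastrula libraries of 24740 and 13380 and of 1719 and 898. The call of CTEL_peak_26484, the last of these 5, was lost in 6 alternatives.

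Over the same 3 stages, transient closing was also seen at strong sites. CTEL_peak_27301 (scaffold 408, 36092 to 38009) had 935 and 836 in the gastrula, against 2390 and 2282 at stage 4tt and 2464 and 2920 in 64-cell embryos. CTEL_peak_36951 (scaffold 637, 108161 to 109812) had 468 and 383 in the gastrula, against 1022 and 1054 and against 939 and 1001 at the same ends. CTEL_peak_6180 and CTEL_peak_5736 followed the same course. CTEL_peak_41846 (scaffold 80, 413527 to 414069) combined it with a net fall, with 1032 and 1117 in 64-cell embryos, 108 and 81.9 in the gastrula and 252 and 241 at stage 4tt. Among the 5 peaks with the largest smaller step, which were weaker sites, the gastrula signal fell to near 0 at CTEL_peak_17168 and CTEL_peak_11478 and less far at the other 3. CTEL_peak_17168 (scaffold 2539, 3822 to 4118) had 0 and 1.24 in the gastrula, against 130 and 86.8 at stage 4tt and 35.3 and 62.8 in 64-cell embryos. It was low again at stage 5, at 0 and 0.66, and stood at 71.4 and 76.9 at stage 8. CTEL_peak_32922 (scaffold 53, 40084 to 40538) had 22.0 and 37.6 in the gastrula, against 200 and 234 at stage 4tt and 169 and 243 in 64-cell embryos. CTEL_peak_11478 had 0 and 3.75 in the gastrula, CTEL_peak_17038 had 10.96 and 5.00, and CTEL_peak_6931 had 18.9 and 2.48.

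Opened peaks were stronger and wider than closed peaks. Their mean signal over the 10 libraries had a median of 778, against 309 for closed peaks and 335 for all peaks, and their width a median of 984 bp, against 835 and 810 bp. This mean includes the libraries that set the classes. In the 64-cell libraries alone, the medians were 552 and 575 for opened and 394 and 401 for closed peaks. All values of this paragraph are with the deposited scaling only. The authors' peak calls had a median fold enrichment of 3.03 and 2.89 in the 64-cell libraries and 3.11 and 3.13 at stage 4tt. Whether enrichment over background in the libraries bears on these values was not tested. In the strongest quintile of peaks 60.2% had opened and 18.01% had closed, with a median log2 change of 0.37. In the second quintile from the bottom 14.6% had opened and 42.6% had closed, with a median of -0.38. Fewer peaks were called in the weakest quintile, where 9.61% had opened and 17.8% had closed. Within a quintile of signal, however, the wider peaks were those that closed more often. In the middle quintile 12.0% of the peaks wider than its median of 779 bp had opened and 53.1% had closed, whereas 26.6% of the narrower ones had opened and 34.2% had closed. The same held in the second, the fourth and the fifth quintile, and in the weakest quintile wide peaks closed less often (15.3% against 20.3%). The scaling per read was close to constant over abundance, at 0.984 to 1.01 times as much in the strongest as in the weakest quintile of the 6 libraries.

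**Figure D5:**
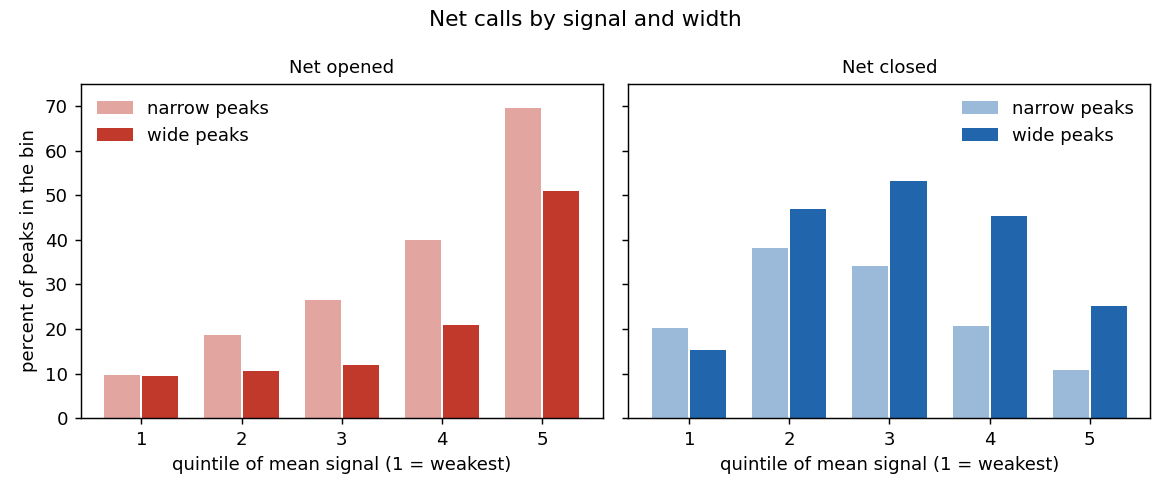
Percent of peaks that opened (left) and closed (right) between 64-cell embryos and stage 4tt larvae, by quintile of the mean signal over 10 libraries and, within each quintile, for peaks up to the median width (light) and wider (dark). Opening reaches 69.4% in narrow peaks of the strongest quintile, and closing reaches 53.1% in wide peaks of the middle quintile.

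Neighbouring peaks tended to change in the same direction. Among adjacent pairs on a scaffold that were both called, 76.0% agreed in direction at gaps under 500 bp (1581 pairs), 67.3% at 1000 to 2000 bp (2958 pairs) and 56.1% at 5000 to 20000 bp (3822 pairs). At gaps of 20000 bp or more 58.6% agreed (263 pairs). The opened share of the calls alone gives 50.3%. Adjacent peaks are not independent of each other, and these shares carry no test. Runs in which every consecutive peak opened reached 15 peaks on scaffold 23 (104633 to 155791), where the median peak of the run had 2828 and 2756 at stage 4tt against 1711 and 1830 in 64-cell embryos. The run of 14 peaks on scaffold 44 (138694 to 183862) had medians of 3475 and 3472 against 1906 and 2046, and that of 13 peaks on scaffold 17 (587681 to 615534) had 1208 and 1190 against 689 and 686. In these 3 runs nearly the whole mean rise fell into the first step, with a mean log2 change of 0.80, 0.68 and 1.16 from 64-cell embryos to the gastrula and of -0.03, 0.10 and -0.04 from there to stage 4tt. Runs of closing were shorter. The longest held 11 peaks on scaffold 809 (37615 to 65721), with medians of 143 and 142 at stage 4tt against 280 and 339 in 64-cell embryos. Runs of 9 peaks on scaffold 119 (271473 to 336814) and scaffold 229 (205907 to 226938) had mean log2 changes of -1.92 and -1.91. On scaffold 119 the first step accounted for -1.64 and the second for -0.27, whereas on scaffold 229 the fall was shared, at -1.004 in the first step and -0.91 in the second. Of the 662 scaffolds with at least 20 peaks, 660 carried both opened and closed peaks, and their median log2 changes ranged from -0.94 on scaffold 809 to 0.58 on scaffold 538.

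The authors' peak calls, made in each library alone, gave a second view of the same reads. Of all consensus peaks, 63.9% and 62.5% overlapped a called peak in the stage 4tt libraries and 46.6% and 51.7% in the 64-cell libraries. Of the opened peaks, 93.3% and 92.9% overlapped a called peak in the stage 4tt libraries, against 53.3% and 56.6% in the 64-cell libraries. Of the closed peaks, 39.8% and 38.1% did at stage 4tt, against 49.3% and 54.9% in 64-cell embryos, where the share was near that of all peaks, and for closing past a log2 change of 1 the shares were 27.2% and 25.8% against 60.0% and 65.4%. A call in both stage 4tt lists and neither 64-cell list was found at 4004 opened peaks (32.1%) and 298 closed peaks (2.07%), beside 14.9% of all peaks. The reverse was found at 1777 closed peaks (12.4%) and 9 opened peaks (0.072%), beside 4.66% of all peaks. Both gastrula lists and none of the 4 end lists held 384 of the 3554 peaks above both ends (10.8%), beside 1.77% of all peaks, and all 4 end lists but neither gastrula list held 184 of the 5875 peaks below both (3.13%), beside 0.694% of all peaks. The lists also follow depth, which was lowest in the 64-cell libraries.

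In the later larvae, sequenced elsewhere, the classes lay closer together than at stage 4tt. These classes were chosen by their 64-cell and stage 4tt values. A narrower gap in libraries outside the choice can come from the choice alone, and cannot be told apart here from a change with stage. The median signal of peaks that opened past a log2 change of 1 was 213 and 209 in 64-cell embryos, 574 and 556 at stage 4tt, 350 and 360 at stage 5 and 308 and 324 at stage 8. That of peaks that closed past the same change was 361 and 376 in 64-cell embryos, 129 and 133 at stage 4tt, 225 and 222 at stage 5 and 222 and 230 at stage 8.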

How the data were processed

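ATAC-seq of Capitella teleta was analysed in 10 libraries, 2 per stage at 5 stages. Per the methods of the study and the submitters' processing notes, the authors mapped trimmed read pairs with NextGenMap, filtered them with samtools and deepTools, called peaks per library with MACS2 2.2.7.1, kept reproducible peaks, and normalised a consensus set with DiffBind and DESeq2. The genome build of the mapping is not given in the sources used here. The deposited table holds a normalised signal per consensus peak and library. The deposited peak lists give fold enrichment as a ratio, −log10 p and q values and a score, which equalled 10 times the −log10 q truncated to a whole number in 99.95% of lines. Only positions, fold enrichment and −log10 q were used.

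In each library the deposited signal rose in steps of 1 read, whose size changed little with abundance. Reads were recovered by dividing by a running median of this step over 41 peaks. Within 0.1 of a whole number were 99.99% of values of 1 to 50 reads, 99.5% of 51 to 200 reads and 72.5% of all. The recovered reads gave depth, Poisson intervals, which cover counting error only, and the count tests.

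The log2(signal + 1) values of all 10 libraries were fitted in limma 3.58.1 (trend, robust, R 4.3.3) without covariates or a filter, and p-values were adjusted by Benjamini-Hochberg over all 46409 peaks. A peak outside both ends had to pass both steps in opposite directions. The fit was tested on simulated data. Alternatives were pseudocounts of 8 and 32, a mean of at least 20, the 6 libraries of one centre, other scalings, the replicate number as a block, a log2 change over 1, leaving out each library, and edgeR 4.0.16 and DESeq2 1.42.0 on recovered reads, where edgeR called 12084 opened and 14145 closed peaks. Overlaps of at least 1 base were found with bedtools 2.31.1.

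The comparison, the lists and the rule for named peaks were chosen with earlier results of these data known. Named are the 10 largest log2 rises and falls among called peaks with separated libraries and a mean of at least 50 at one end, the 5 peaks farthest above and below both ends by the smaller step, the 3 longest runs each way (ties by mean log2 change) and the 3 largest changes each way in signal. Sets with a mean of at least 1000 and the scaling without the 10 strongest peaks were added after values were seen. Gene lists that had been planned were not used, since the gene table at hand places no gene on a scaffold.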

Additional observations from a re-analysis of the deposited data

Results flagged for a closer look

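Called regions outside the consensus set entered no comparison of the report. The 6 lists of the 3 stages merged to 71407 regions, of which 30424 did not overlap a consensus peak. Of these, 1687 were called in both stage 4tt lists and neither 64-cell list (median fold enrichment 2.82), and 2970 in both 64-cell lists and neither stage 4tt list (median 3.03). A further 479 were called in both gastrula lists and in none of the 4 lists of the ends (median 2.52). They carry a signal in data that the comparisons did not use, and no read counts were recovered for them.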

How the results depend on the processing

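Counts of opened and closed peaks kept within 1.5 times their value in the alternatives below except as given. Median centring gave 18964 peaks opened in the first step, 5882 above and 3466 below both ends, and 16709 above and 9531 below the midpoint, with median positions of 0.952 at opened and 0.804 at closed peaks. Quantile normalisation gave 3636 peaks below both ends and positions of 0.804 and 0.836. The 6 libraries of one centre gave 3885 peaks below both ends. Requiring a log2 change over 1 left 3654 opened and 5309 closed peaks in the net contrast, 4219 and 7306 in the first step, 1911 and 2223 in the second, 1092 above and 729 below both ends, and 2519 above and 2632 below the midpoint. On the linear scale the position of opened peaks was 0.707. Leaving out 1 library moved the closed position to between 0.922 and 1.007, and the library position of the gastrula to between 0.665 and 0.785. That library position was 0.798 and 0.816 with pseudocounts of 8 and 32, 0.783 with a mean of at least 20, 0.738 after quantile normalisation, 0.781 after median centring, 0.825 at peaks with a mean of at least 100 (added after values were seen) and 0.869 with the axis of replicate 1. The cause of these shifts was not tested.

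Libraries of the same replicate number showed no shared shift, since the deviations of replicate 1 correlated at -0.02, -0.08 and -0.01 between stages over 40335 peaks. Whether such libraries share a brood or preparation cannot be told from these values. A fit with the number as a replicate block called 12482 opened and 14276 closed peaks, 3531 above and 5769 below both ends. Shares of opened and closed peaks in the lists fell with stricter overlaps. With 0.5 of the consensus peak covered, 75.2% of opened peaks were in the stage 4tt lists against 26.8% in the 64-cell lists, and 15.0% of closed peaks against 25.5%. At a −log10 q of at least 5, they were 88.8% against 48.3% and 30.4% against 38.8%. With 2 libraries per stage, the exact permutation of 2 against 2 libraries cannot reach the threshold for a single value, and the calls rest on the spread shared by limma across peaks. Depth was lowest in the 64-cell libraries, so low values there are the least certain.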
